A study of Mus musculus with 2 samples.

Results

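Mir499, Mir208b and Mir208a are microRNA genes whose hairpins lie inside introns of myosin heavy chain genes, the genes of the motor protein of the muscle thick filament. They were chosen by symbol, as the GENCODE M21 genes whose hairpins lie within Myh7b, Myh7 and Myh6. All 3 have a row among the 2202 microRNA genes counted. Small RNA sequencing gave their levels in gastrocnemius, the large calf muscle, of female B6CASTF1/J mice aged 14 days. B6CASTF1/J mice are the first generation from crossing C57BL/6J with CAST/EiJ. There was 1 group of 2 biological replicates, with no treatment, second tissue or second age, so levels were described and no conditions were compared. The biosample name of replicate 1 speaks of 3 females and that of replicate 2 of a single one, and both name the same donor. Nothing in the labels says how tissue was combined, so a spread between the replicates may be partly technical.

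An intronic microRNA is cut out of the transcript of its host gene, and its level often follows that of the host. Myh7 encodes the myosin of slow, oxidative fibres and of the heart's ventricles, Myh6 the alpha myosin of the heart, and Myh7b an ancient relative of both. In mice, the main strands of the Mir208b and Mir499 hairpins are known to favour the slow fibre programme by holding down repressors such as Sox6, and Mir208a is known as a heart microRNA. The gastrocnemius of the mouse is made up mostly of fast fibres. No host transcript was measured here.

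The mature sequences show what the 3 genes have in common and where their reads differ. They were taken from RefSeq (GRCm38.p6), where all 3 hairpins matched, letter for letter, the GENCODE hairpins behind the counts. The lines give the main strands 5′ to 3′, with the seed, bases 2 to 8, in capitals.
mmu-miR-499-5p: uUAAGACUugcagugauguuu
mmu-miR-208b-3p: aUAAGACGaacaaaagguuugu
mmu-miR-208a-3p: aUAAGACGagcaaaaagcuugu
The seed, which guides binding to target messages, was UAAGACG in both Mir208 strands and UAAGACU in the Mir499 strand. Among 1738 mature mouse sequences of the table, UAAGACG was held by 2, UAAGACU by 1, and their common bases 2 to 7 by these 3 alone. Counted from 1 at the 5′ end, the Mir208b strand differs from the Mir208a strand by A10G, G16A and U18C, all outside the seed. It differs from the Mir499 strand inside the seed by G8U, and 10 of 21 aligned positions are identical.

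The counts pool both arms of each hairpin. The whole hairpins are shown for that reason, 5′ to 3′ and on the strand of the gene, with both annotated arms in capitals.
Mir499 hairpin: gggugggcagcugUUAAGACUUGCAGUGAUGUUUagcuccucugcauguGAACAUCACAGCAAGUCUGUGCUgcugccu
Mir208b hairpin: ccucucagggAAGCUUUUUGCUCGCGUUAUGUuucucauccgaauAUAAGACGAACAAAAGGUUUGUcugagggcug
Mir208a hairpin: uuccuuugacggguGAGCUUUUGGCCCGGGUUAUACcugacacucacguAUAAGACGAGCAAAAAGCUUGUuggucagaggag
The main strand is the 5′ arm in Mir499 and the 3′ arm in both Mir208 hairpins. Mir208b and Mir208a share at most 10 nt on the same strand, the stretch UAUAAGACGA around the seed. Across strands they share 14 nt, since AAGCUUUUUGCUCG at the start of the Mir208b 5′ arm is the reverse complement of CGAGCAAAAAGCUU in the Mir208a 3′ arm. Neither Mir208 hairpin shares more than 14 nt with any of the other 2201 hairpins, and Mir499 shares at most 13 nt, with Gm24462. None of the 6 arms occurs, on either strand, in a transcript of another GENCODE gene among 141767 transcripts searched. Allowing 2 mismatches, none occurs in another microRNA hairpin. With up to 4, both Mir208b arms and the Mir208a 3′ arm also fit the other Mir208 hairpin, and the Mir499 5′ arm fits Mir7055. The genome outside transcripts and the CAST/EiJ allele were not used here. RNAfold predicted a single stem-loop for each hairpin, with a folding energy of -42.5 kcal/mol for Mir499, -32.2 for Mir208b and -37.6 for Mir208a.

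Each hairpin lies within a single intron on the strand of its host, and none overlaps a host exon. Mir499 (ENSMUSG00000076312.1) spans chr2:155622880-155622958 (mm10, plus strand), in intron 19 of the 42-exon Myh7b transcript. That intron is 481 nt long, and the hairpin starts 158 nt after exon 19 and ends 244 nt before exon 20. Mir208b (ENSMUSG00000077928.1) spans chr14:54975700-54975776 (minus strand), in intron 31 of Myh7, 102 nt after exon 31 in an intron of 461 nt. Mir208a (ENSMUSG00000065432.1) spans chr14:54949060-54949142 (minus strand), in intron 29 of Myh6, 195 nt after exon 29 in an intron of 542 nt. The Mir208 hairpins are 26557 bases apart, since Myh6 and Myh7 are neighbours, 3756 bases from each other. Each of these hairpins thus fills between 15.3% and 16.7% of its intron.

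**Figure D1:**
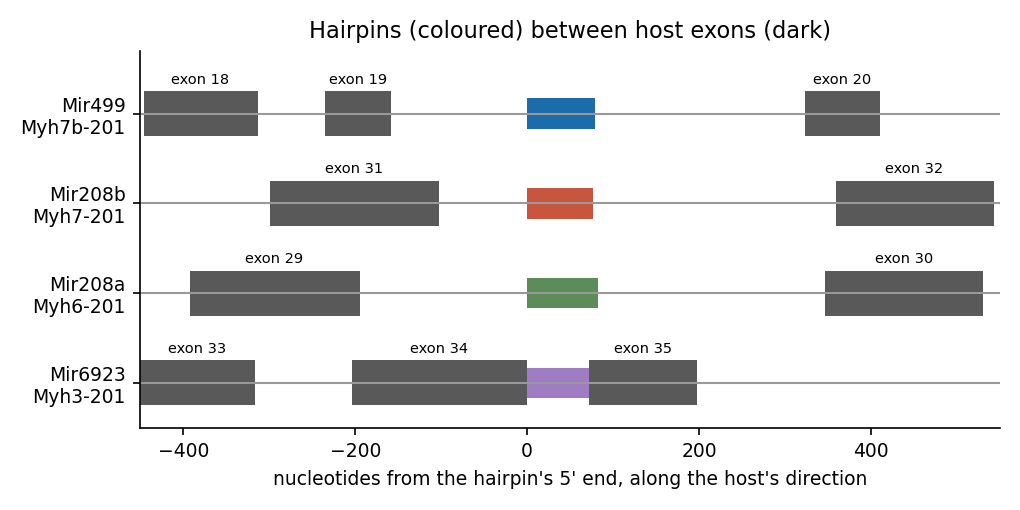
Position of each hairpin (coloured) between the annotated exons of its host (dark), in nucleotides from the hairpin's 5′ end along the direction of the host; exons are cut off at the plot's edges. Mir499, Mir208b and Mir208a lie free within introns of 481, 461 and 542 nt, whereas Mir6923 fills its whole intron of Myh3.

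Reads on microRNA genes numbered 2672454 in replicate 1 and 4292012 in replicate 2, which is 33.4% and 35.4% of all reads. Reads aligned to several places made up 52.7% and 52.4% and entered no gene. Levels are CPM, the reads of a gene on its own strand scaled so that the reads on microRNA genes have the same total in each library, so 1 read was worth 0.374 CPM in replicate 1 and 0.233 CPM in replicate 2. A gene counted as expressed where each replicate had at least 1 CPM, which held for 367 of the 2202 genes (16.7%) and for all 3 myosin intron genes. In this whole tissue, fewer cells of a type and less RNA per cell cannot be told apart. The muscle marker Mir206, largely restricted to skeletal muscle, stood at 95105 CPM in replicate 1 and 84694 CPM in replicate 2. Ratios between replicates carry exact 95% binomial intervals, which cover counting error only.

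Mir499, in Myh7b, was the most abundant of the 3. It had 569 reads in replicate 1 and 1201 reads in replicate 2, or 213 and 279.8 CPM, for a mean of 246 ± 47.3 CPM (SD, n = 2). The counting intervals were 196 to 231 CPM in replicate 1 and 264 to 296 CPM in replicate 2, so they did not overlap. Mir499 ranked 129 of all genes by mean level, and 135 and 127 within replicates 1 and 2. Its ratio of replicate 1 over replicate 2 was 0.761 (0.687 to 0.841).

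Mir208b, in the slow myosin gene Myh7, came next. It had 218 reads in replicate 1 and 639 in replicate 2, or 81.6 and 148.9 CPM, for a mean of 115 ± 47.6 CPM (SD, n = 2). Its counting intervals, 71.1 to 93.1 CPM in replicate 1 and 138 to 161 CPM in replicate 2, also lay apart. The gene ranked 171 by mean level, but 185 in replicate 1 and 156 in replicate 2. Its ratio of replicate 1 over replicate 2 was 0.548 (0.468 to 0.640).

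Mir208a, in the cardiac gene Myh6, was close to the limit of detection. It had 3 reads in replicate 1 and 15 reads in replicate 2, or 1.12 and 3.49 CPM (mean 2.31 ± 1.68 CPM, SD, n = 2). The counting intervals, 0.232 to 3.28 CPM in replicate 1 and 1.96 to 5.76 CPM in replicate 2, overlapped. In replicate 1 the level is the same as the limit that a count of 0 would allow, 3 reads or 1.12 CPM, so its call as expressed rests on a single read there. The ratio of replicate 1 over replicate 2 was 0.321 (0.0596 to 1.14), so a difference between the libraries was not detectable at this depth. Mir208a made up 1.36% (exact 95% interval 0.281% to 3.92%) of the Mir208a and Mir208b reads in replicate 1 and 2.29% (1.29% to 3.75%) in replicate 2.

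**Figure D2:**
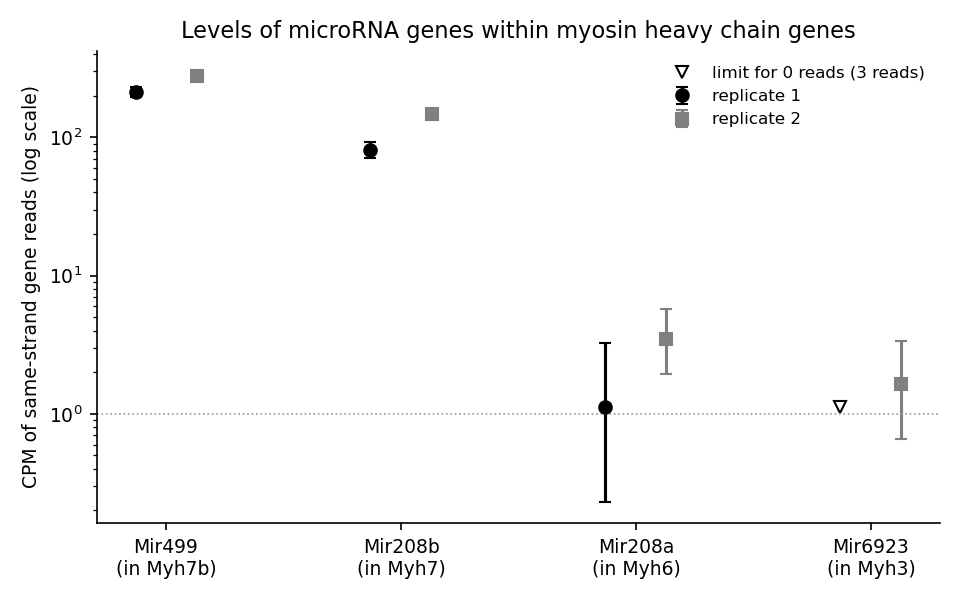
CPM (log axis) of each microRNA gene within a myosin heavy chain gene, in replicate 1 (circles) and replicate 2 (squares), with exact 95% counting intervals; the triangle is the limit for 0 reads and the dotted line is 1 CPM. In both replicates Mir499 (mean 246 CPM) and Mir208b (mean 115 CPM) stand far above Mir208a (mean 2.31 CPM).

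The order of the 3 genes was the same in both libraries, and no gene's range over the replicates overlapped that of another. Mir499 had 2.61 reads per Mir208b read (2.23 to 3.07) in replicate 1 and 1.88 (1.71 to 2.07) in replicate 2. That proportion was 1.39-fold higher in replicate 1 (conditional 95% interval 1.15 to 1.68, counting error only). The libraries thus differed in it beyond counting error. It was not set beside the proportions of other gene pairs, so nothing particular to this pair is shown. Mir208b had 72.7 reads per Mir208a read in replicate 1 (24.5 to 355) and 42.6 in replicate 2 (25.6 to 76.6), and these intervals overlap widely. Reads of different hairpins can be ligated and amplified with different ease, so ratios between genes are ratios of reads.

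The 3 genes together had 790 reads in replicate 1 and 1855 in replicate 2, or 296 CPM (275 to 317) and 432 CPM (413 to 452). Mir499 supplied 72.0% of these reads in replicate 1 and 64.7% in replicate 2. Mir208b supplied 27.6% in replicate 1 and 34.4% in replicate 2, and Mir208a 0.380% and 0.809%. The exact 95% intervals of the Mir499 share were 68.8% to 75.1% in replicate 1 and 62.5% to 66.9% in replicate 2. Its part in the total was thus higher in replicate 1 beyond counting error. As Mir208a supplied so few reads, this largely restates the proportion of Mir499 to Mir208b given above, with the same limit.

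**Figure D3:**
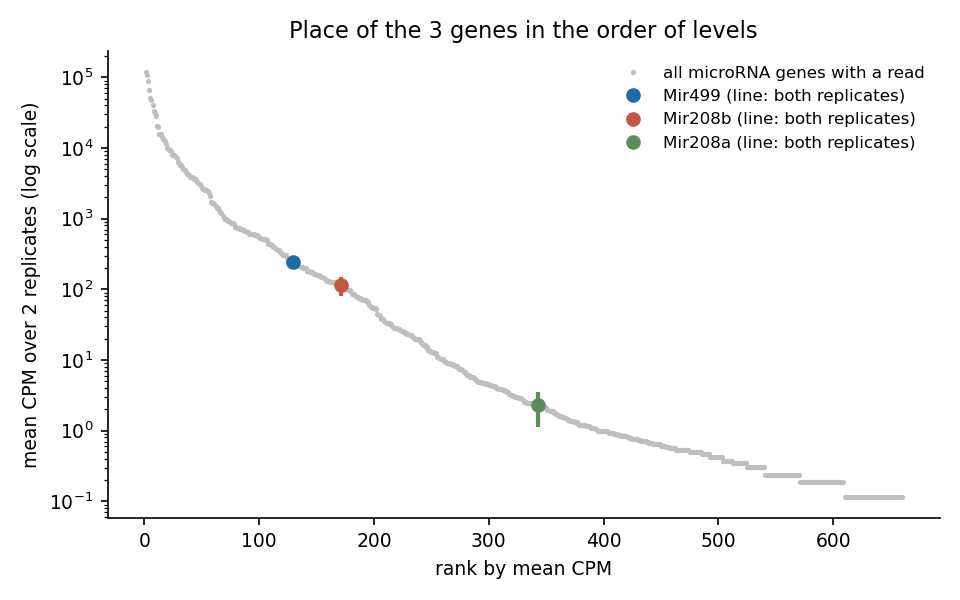
Mean CPM (log axis) against rank for all microRNA genes with a read (grey), with Mir499, Mir208b and Mir208a as coloured points and vertical lines joining their replicates. The genes rank 129, 171 and 343, and their ranges do not overlap each other.

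In the order of all genes, the place of each myosin intron gene was resolved only roughly. For Mir499, the range over the replicates overlapped that of 20 other genes, ranked between 120 and 167. The 3 genes next above it, Mir543, Mir467d and Mir500, and the 3 next below, Mir148a, Mir503 and Mir34a, were all among them, with means from 225 to 255 CPM. Mir208b overlapped 37 genes, ranked 142 to 191. Its neighbours Mir107, Mirlet7a-2 and Mir24-2 above and Mir30c-2, Mir5099 and Mir125b-2 below, with means from 103 to 121 CPM, did not differ from it beyond this spread. Mirlet7a-2, Mir24-2, Mir30c-2 and Mir125b-2 have sister copies, and reads shared between copies may be among those aligned to several places. Their counts may thus be too low, so the order is that of counted reads and not of mature microRNAs. Mir208a overlapped 141 genes, ranked 273 to 458. Genes that lay above a member in both libraries, throughout its range, numbered 121 for Mir499, 150 for Mir208b and 298 for Mir208a.

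All 3 genes were lower in replicate 1 than in replicate 2. Of 496 genes with a read in both libraries, 253 (51%) were lower in replicate 1. At a mean of 100 CPM or more, a level that Mir499 and Mir208b reach, 176 genes were measured. The interval lay below 1 for 69 of these (39.2%), Mir499 and Mir208b among them, and the median difference between the libraries was 1.12-fold in either direction. A ratio at least 1.5-fold lower in replicate 1 was seen in 9 genes (5.11%), of which Mir208b was 1 and Mir499 was not, and 14 genes (7.95%) were that far apart in either direction. With 1 library a side these ratios compare libraries, not animals, and have no p-value.

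Mir208b stood near the edge of the ratios of its level, and Mir499 within them. Of 64 other genes within 2-fold of the mean level of Mir208b, none had a ratio as low, and 4 were as far from 1 in either direction. Of the 175 other genes at 100 CPM or more, 2 had a ratio as low as that of Mir208b and 19 a ratio as low as that of Mir499. Of 57 other genes within 2-fold of the level of Mir499, 8 had a ratio as low. For Mir208a it was 7 of 89, at a level where a few reads set the ratio.

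**Figure D4:**
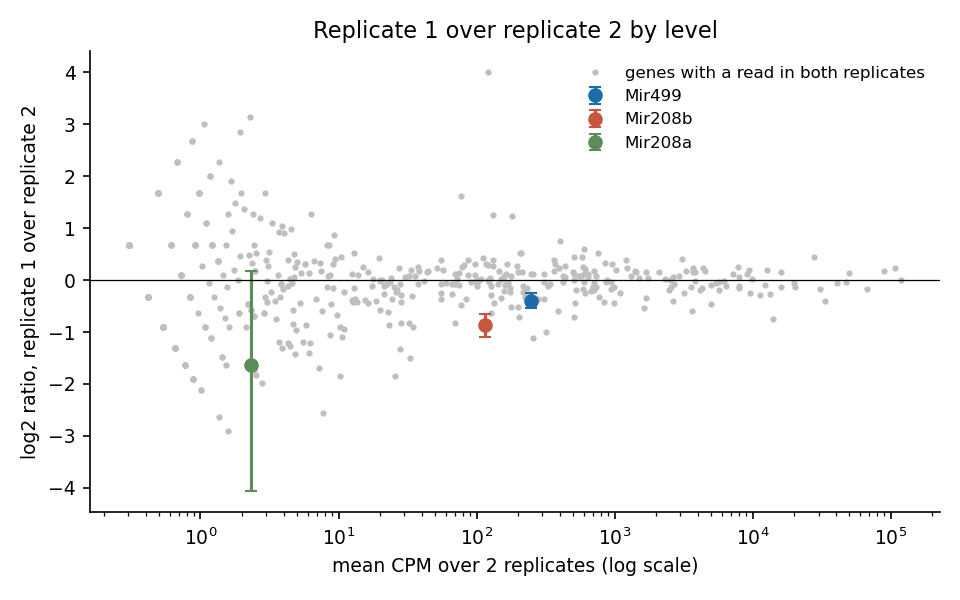
Log2 ratio of replicate 1 over replicate 2 against mean CPM (log axis) for the 496 genes with a read in both libraries (grey), with the 3 myosin intron genes coloured and their 95% counting intervals. All 3 lie below 0, the interval of Mir208a reaches past 0, and Mir208b lies below the other genes of its level.

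By log2 ratio between the libraries, which is the only pattern 2 samples can show, the genes nearest to Mir499 among those at 100 CPM or more were Mir411 (ratio 0.759), Mir433 (0.757) and Mir323 (0.777). The nearest to Mir208b were Mir99a, with 10499 CPM in replicate 1 and 17758 CPM in replicate 2 (ratio 0.591), Mir770 (0.503) and Mir338 (0.609). These lay 0.11 to 0.15 from Mir208b on the log2 scale, against at most 0.03 for those near Mir499. Such likeness over 2 libraries is a description of them.

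Where the interval lay clear of 1, other striated muscle microRNAs were higher in replicate 1, namely Mir206, Mir1a-2 and Mir486. Of the 10 genes listed, 7 were expressed, and of the 9 with any read 5 were lower in replicate 1. The interval of each of those 5 included 1, so their direction was not resolved. Mir206, which outnumbered Mir499 by 447 reads to 1 in replicate 1 and 303 to 1 in replicate 2, had a ratio of replicate 1 over replicate 2 of 1.12 (1.12 to 1.13). For each 1000 reads of Mir206 there were 2.24 of Mir499 in replicate 1 and 3.30 in replicate 2, and 0.858 of Mir208b in replicate 1 and 1.76 in replicate 2. Mir1a-2, one source of the abundant muscle microRNA miR-1, reached 245 CPM in replicate 1 against 169.8 CPM in replicate 2, a ratio of 1.44. Mir486, of the Ank1 gene, reached 643 CPM in replicate 1 against 538 CPM in replicate 2, a ratio of 1.20. Mir486 is also a microRNA of erythroid cells, and the erythroid genes Mir451a and Mir144 together had a ratio of 2.36. Muscle and blood thus cannot be told apart in the ratio of Mir486. The ratio was 0.821 (0.604 to 1.11) for Mir133b, the neighbour of Mir206, and 0.778 (0.490 to 1.21) for Mir3107, opposite Mir486, so both intervals included 1. Mir1a-1 had a mean of 8.24 CPM and Mir133a-1 of 3.08 CPM, whereas Mir133a-2 and Mir1b had at most 9 reads in a library and Mir133c none. Copies of Mir1a and of Mir133a share mature sequences, so their reads may be among those aligned to several places. Mir486 and Mir3107, which overlap on opposite strands, and Mir133b were not searched for such sharing. Their counts may thus lack reads in the same way. Mir499 and Mir208b share no such stretch, so their level relative to those genes cannot be read from these counts.

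Among markers of other cells, the hepatocyte, erythroid and leukocyte lists moved most between the same libraries. The erythroid genes Mir451a and Mir144 summed to 437 CPM in replicate 1 and 185 CPM in replicate 2, with both genes higher in replicate 1. The hepatocyte marker Mir122 stood at 229 CPM in replicate 1 and 14.2 CPM in replicate 2. Of the 4 leukocyte genes, led by Mir155, 3 were higher in replicate 1, and they summed to 1185 CPM in replicate 1 and 853 CPM in replicate 2. The smooth muscle and fibroblast list, led by Mir143, had 5 of 6 genes with a read and summed to 24310 CPM in replicate 1 and 25430 CPM in replicate 2, with 3 of the 5 lower in replicate 1. The endothelial gene Mir126a stood at 118724 CPM in replicate 1 and 119268 CPM in replicate 2. In the neural list Mir128-1 led a sum of 1912 CPM in replicate 1 against 1676 CPM in replicate 2. The defining Mir124a and Mir9 genes had no read except 4 reads of Mir9-3 in replicate 2. Both are listed in several copies, and reads shared between copies may be among those aligned to several places. Their lack of counted reads thus does not show that they were absent. These lists sum to between 0.956 and 16.1 times as much in replicate 1 as in replicate 2, against 0.684 (0.629 to 0.744) for the 3 myosin intron genes. A sum follows its most abundant gene, and single genes can lie lower. In the smooth muscle and fibroblast list, Mir143 held most reads and had a ratio of 0.966. Mir214 had 0.897 (0.876 to 0.919) and Mir199b 0.548 (0.380 to 0.777), the same as Mir208b. The part of these lists in the lower levels of Mir499 and Mir208b in replicate 1 was not tested.

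**Figure D5:**
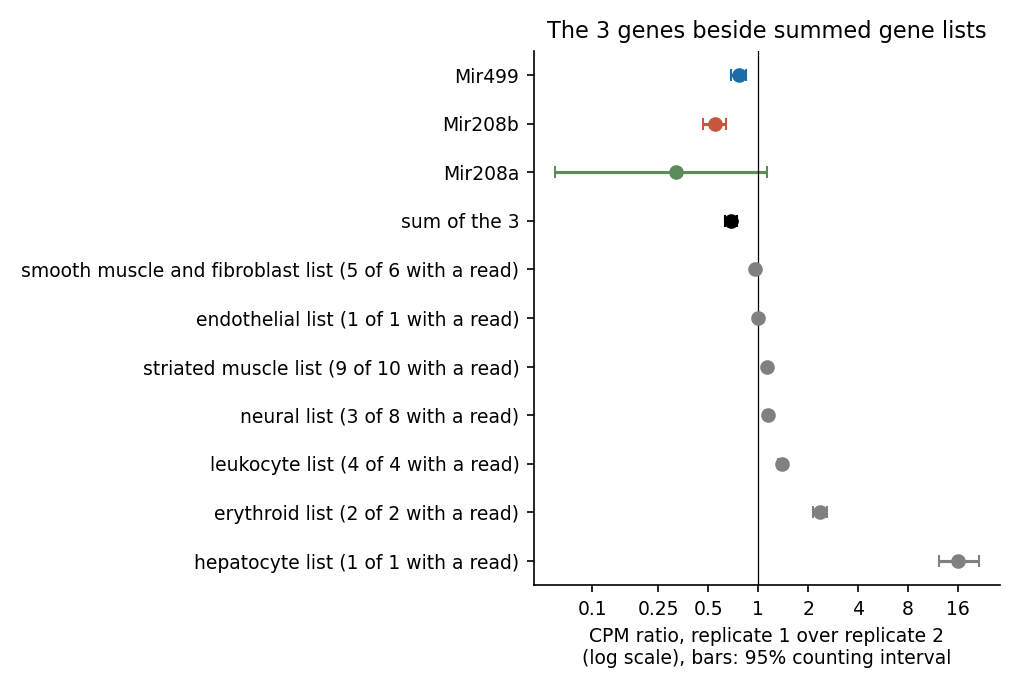
CPM ratio of replicate 1 over replicate 2 (log axis) with 95% counting intervals for Mir499, Mir208b, Mir208a and their sum, above the summed lists of other genes. The sum of the 3 lies at 0.684, and the lists range from 0.956 for smooth muscle and fibroblast to 16.1 for hepatocyte.

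Of the 14 genes annotated with a Myh symbol and number, 4 hold a microRNA gene, and the remaining one is Myh3, the embryonic myosin of developing muscle. Its microRNA gene Mir6923 (ENSMUSG00000098855.1, chr11:67099804-67099875, plus strand) is 72 nt long and coincides base for base with an intron of Myh3 of 72 nt. It is shown because it begins and ends as an intron does, with the annotated 5′ arm in capitals.
Mir6923 hairpin: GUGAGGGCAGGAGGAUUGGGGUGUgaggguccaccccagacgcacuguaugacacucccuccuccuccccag
Mir6923 had 0 reads in replicate 1 and 7 reads in replicate 2, or 1.63 CPM (0.656 to 3.36). The count of 0 allows up to 1.12 CPM by the limit of 3 reads, and up to 1.38 CPM by the exact interval. It was not called expressed, and its libraries could not be told apart at this depth. A count per hairpin does not separate the annotated arm from other fragments of the intron.

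No read fell on the opposite strand of Mir499, Mir208b or Mir208a in either library. Their counts were the same whether or not strand was regarded, so the values of these genes rest on reads in the direction of the host gene alone.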

How the data were processed

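The deposited tables hold raw counts of reads on each microRNA gene, made on mm10 with GENCODE M21, per the file headers of the accompanying text. Which aligner and counter made them is not given in the sources used here. Each library has 3 count columns, read from their order and totals as reads without regard to strand, on the gene's strand and on the opposite strand. The second was used, since small RNA ligation keeps strand. The 4 lines that name no gene (66.6% of reads in replicate 1, 64.6% in replicate 2) stayed out of totals. All 2202 identifiers matched GENCODE M21.

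Counts became CPM by the total over gene rows. Shares and ratios have exact binomial 95% intervals, and no test was run with 1 group of 2 replicates. The labels name no molecular identifiers. Intervals and fold calls were checked on simulated counts that varied by counting error alone. That check cannot show how they behave where real libraries differ beyond counting. Named genes were the 3 members, other microRNA genes inside Myh genes, neighbours in level and ratio, and fixed lists; members and lists were chosen with earlier results of these data known. Alternatives used edgeR 4.0.16 and DESeq2 1.42.0 factors in R 4.3.3. Other work used Python 3.11.15, scipy 1.17.1 and ViennaRNA 2.7.2.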

Additional observations from a re-analysis of the deposited data

How the results depend on the processing

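Of 20 levels recomputed with another column, scaling factor or denominator, 11 moved by less than the SD between the replicates. Ratios of replicate 1 over replicate 2 kept their direction for each of the 3 genes and their sum under every scaling tried, since a scaling shifts all ratios alike, by -0.08 to 0.06 on the log2 scale. Levels follow the denominator: with all reads, Mir499 stood at 85.0 CPM, Mir208b at 39.95 and the sum at 125.8. Without the 10 most abundant genes they stood at 636, 297 and 939, and Mir208a at 5.91. With the column that ignores strand, Mir499 stood at 331 and the sum at 489, because that column's total is smaller.

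With 2 replicates, leaving out 1 always moves a mean by less than its SD, so these values show the span only: they were 213 to 279.8 CPM for Mir499, 81.6 to 148.9 for Mir208b, 1.12 to 3.49 for Mir208a, 296 to 432 for the sum, and 1.88 to 2.61 for Mir499 over Mir208b. Either replicate alone gave 396 to 411 expressed genes, and 3 members each time. Expressed genes numbered 367, against 401 at 0.5 CPM, 280 at 5 CPM and 255 at 10 CPM. At 5 or 10 CPM, 2 members passed, without Mir208a. Genes at least 1.5-fold apart numbered 14 of 176, but 28 at a mean of 10 CPM and 180 with no level filter, as low counts give wide ratios. No paired analysis was possible because there is 1 group. Depth limits Mir208a, with 3 and 15 reads.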
